A study of Homo sapiens with 8 samples.

Results

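The 42 genes described here belong to homologous recombination and to the repair pathways around it, and they were chosen by name out of the 78691 genes in the count table. They comprise the BRCA proteins and their partners, the strand-exchange proteins, break sensing and end resection, the checkpoint kinases, the Fanconi anemia core and ID complexes, junction processing, and 6 genes of mismatch, excision, single-strand break and end-joining repair. Their RNA was measured by poly(A)-selected, paired-end RNA sequencing in 8 libraries. C4-2B, an androgen receptor-positive castration-resistant prostate adenocarcinoma line, carried either an empty lentiviral vector (C4-2B control) or a lentivirus that expresses human MYCL together with EGFP from the EF1A promoter (C4-2B MYCL), so MYCL counts there include the vector's transcripts. NCI-H660, a neuroendocrine prostate cancer line, carried a non-targeting shRNA (NCI-H660 shControl) or shRNA against MYCL (NCI-H660 shMYCL), and the series text names an adenoviral vector for the knockdown while the labels speak of a stable one, so which vector these libraries carried is not clear. Each condition had 2 libraries. The labels call the 2 C4-2B control libraries biological replicates and the others replicates, so the p-values measure the spread between these libraries, part of which may be technical.

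Homologous recombination repairs a double-strand break by copying the intact sister chromatid. The MRE11-RAD50-NBN complex senses the break, nucleases trim it to single strands, BRCA1 and BRCA2 act on the trimmed ends, and strand exchange with the sister follows. The Fanconi anemia proteins unhook DNA crosslinks and hand them to the same machinery, and ATM, ATR, CHEK1 and CHEK2 hold the cell cycle meanwhile. Many of these genes are transcribed more in S phase, and loss of BRCA2, ATM or other members in prostate cancer is known for its link to PARP inhibitor response.

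The libraries held between 15177071 and 32344170 counts, and all 42 genes passed edgeR's filter on low counts in every comparison. MYCL itself stood at 11.4 and 13.4 CPM (counts scaled by library size, with edgeR's TMM factors within each line) in C4-2B control, against 3554 and 4018 in C4-2B MYCL. In NCI-H660 it stood at 109.9 and 86.7 CPM with shControl and at 10.9 and 12.7 with shMYCL. The 9 neuroendocrine markers summed to between 6.94 and 7.32 TPM (counts scaled by gene length and library size) in C4-2B libraries, where between 5 and 7 of them were at 0, and to between 993.1 and 1384 in NCI-H660. The 9 luminal prostate markers had sums from 1416 to 2321 TPM in the C4-2B libraries and from 119.4 to 148.4 TPM in the NCI-H660 libraries, where between 2 and 4 were at 0. The 13 fibroblast, endothelial and leukocyte markers summed to between 12.6 and 48.8 TPM over all libraries, with between 5 and 7 at 0.

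Repair gene RNA was lower across the set in C4-2B cells that expressed MYCL. Together the 42 genes summed to 1029 and 1025 TPM in C4-2B control and to 717.2 and 645.3 in C4-2B MYCL. On log2(TPM + 1) the median log2 fold change was −0.142 over all genes and −0.609 for the 42. Of the 42, 19 fell and none rose, under a threshold of 0.05 on the Benjamini-Hochberg adjusted p of edgeR's quasi-likelihood test and of 0.5 on the size of the log2 fold change. Among the 16866 genes in the fit, 19.9% were called, 8.12% as lower and 11.8% as higher. The median log2 fold change of the 42 genes was −0.489, against −0.002 over all genes tested, and 38 of them lay below 0. At any fold change, 33 of the 42 had an adjusted p under 0.05, against 35.0% of all genes, and 32 of these 33 were lower. In 35 of the 42, both MYCL libraries lay below both control libraries, as they did for 34.7% of all genes, and in 3 they lay above both, as for 34.5%. On log2(TPM + 1) centred on each library's median, the calls of ATR, FANCC and FANCD2 were lost, and on unfiltered TPM values those of ATR, FANCC, FANCL, FANCM, FANCD2 and BLM. In bulk RNA, fewer cells in a state that expresses these genes and less RNA per cell cannot be told apart. The plot of fold changes by role shows every gene in both lines.

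**Figure D1:**
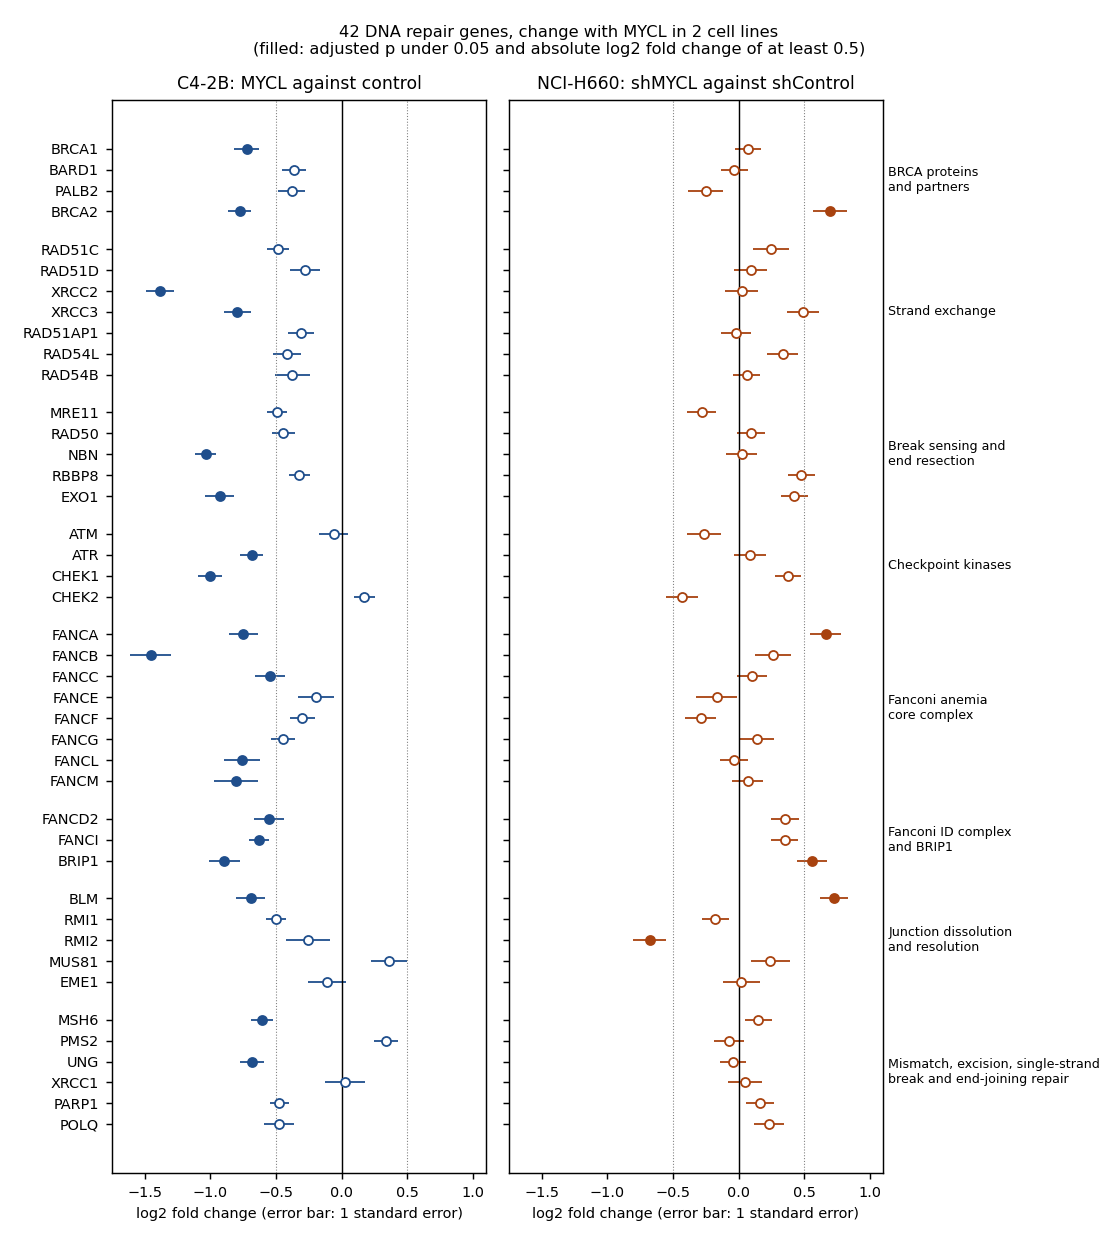
Each point is the log2 fold change of 1 gene with its standard error, in C4-2B MYCL against control (left) and NCI-H660 shMYCL against shControl (right), with genes grouped by role and called genes filled. In C4-2B the 19 filled points all lie left of 0, and in NCI-H660 4 of the 5 filled points lie right of 0.

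In NCI-H660, where shMYCL lowered MYCL, few repair genes passed the same threshold, and most that did were higher. BRCA2, FANCA, BRIP1 and BLM rose and RMI2 fell, so that 5 of 42 were called, against 16.2% of the 16980 genes tested, of which 7.18% rose and 8.99% fell. The share of members called was thus below that of all genes. The median log2 fold change of the 42 was 0.088, against −0.003 over all genes. At any fold change, edgeR gave 13 of the 42 an adjusted p under 0.05, 11 of them with higher values, against 24.8% of all genes. Both shMYCL libraries lay above both shControl libraries in 21 of the 42 genes, against 31.1% of all genes, and below both in 9, against 32.0%. BRCA2 lost its call on TPM values, FANCA did after centring, and on unfiltered TPM values none of the 42 was called, where limma called 1 gene in all and 13 members had an unadjusted p under 0.05. The summed level of the set was 2192 and 2030 TPM with shControl and 2298 and 2410 with shMYCL.

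The breast cancer susceptibility proteins and their partners come first by role. BRCA1 is the ubiquitin ligase and scaffold that promotes resection and recruits PALB2 and BRCA2. BRCA1 stood at 77.5 and 78.5 CPM in C4-2B control and at 51.3 and 43.1 in C4-2B MYCL, a fall of 0.72 ± 0.09 on the log2 scale (standard error; edgeR adjusted p = 0.000593). The MYCL libraries lay below the control libraries with no overlap. In NCI-H660 BRCA1 stood at 120.5 and 114.0 CPM with shControl and at 125.0 and 121.2 with shMYCL, a log2 difference of 0.07 ± 0.10 (edgeR adjusted p = 0.659). BRCA2, which acts on resected DNA, stood at 104.1 and 98.8 CPM in C4-2B control and at 63.7 and 54.6 in C4-2B MYCL (log2 fold change −0.78 ± 0.09, edgeR adjusted p = 0.000334). In NCI-H660 it moved the other way, from 53.9 and 44.1 CPM to 87.4 and 71.2 (log2 fold change 0.69 ± 0.13, edgeR adjusted p = 0.0012). BRCA2 groups did not overlap in either line. BARD1, the partner that forms the ligase with BRCA1, and PALB2, the bridge between BRCA1 and BRCA2, had log2 fold changes of −0.36 and −0.38 in C4-2B and of −0.03 and −0.25 in NCI-H660, none of which reached the fold minimum.

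Among the strand-exchange proteins, 2 of 7 fell in C4-2B, against 8.12% of all genes. None was called in NCI-H660, where 16.2% of all genes were. Each role has too few genes for the absence of a call to be set apart from that share. XRCC2, which acts at the strand-exchange step, stood at 61.6 and 54.9 CPM in C4-2B control and at 24.1 and 20.5 in C4-2B MYCL. It fell by 61.7% (log2 fold change −1.39 ± 0.11, edgeR adjusted p = 5.2e-05), and the groups were far apart. In NCI-H660 XRCC2 stood at 23.4 and 21.9 CPM with shControl and at 22.6 and 23.3 with shMYCL, and these overlapped (log2 fold change 0.02 ± 0.13). XRCC3, which pairs with RAD51C, went from 40.5 and 35.1 to 21.8 and 21.9 CPM in C4-2B (log2 fold change −0.79, edgeR adjusted p = 0.000545), and from 34.3 and 39.0 to 55.0 and 48.2 CPM in NCI-H660, where its log2 fold change of 0.49 lay just under the fold minimum. XRCC3 shares 76.7% of its exon bases with KLC1 on the opposite strand, and since the sources used here do not state whether the counting used strand, reads of the 2 genes may not be separable. KLC1 had a log2 fold change of 0.18 in C4-2B and −0.10 in NCI-H660. RAD51C, RAD51D, RAD51AP1, RAD54L and RAD54B had log2 fold changes between −0.49 and −0.28 in C4-2B, below the fold minimum. In NCI-H660 the same 5 lay between −0.02 and 0.34. RAD54L and RAD54B are motor proteins that remodel DNA during strand invasion, and RAD54B shares 66.0% of its exon bases with FSBP on the same strand. FSBP had log2 fold changes of 0.50 in C4-2B (edgeR adjusted p = 0.0206) and −0.45 in NCI-H660.

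Of the 3 subunits of the break-sensing complex, NBN passed the fold minimum in C4-2B. NBN, the subunit that recruits ATM, stood at 87.5 and 93.6 CPM in C4-2B control and at 42.6 and 45.8 in C4-2B MYCL, a fall of 51.2% (log2 fold change −1.04 ± 0.08, edgeR adjusted p = 5.99e-05). Its partners MRE11, the nuclease, and RAD50, the ATPase, had log2 fold changes of −0.49 and −0.45, under the fold minimum, with edgeR adjusted p-values of 0.00159 and 0.00406. In NCI-H660 NBN stood at 219.7 and 170.8 CPM with shControl and at 195.3 and 201.2 with shMYCL, so that both shMYCL libraries lay between the 2 control values. RAD50 shares 76.9% of its exon bases with a readthrough gene, ENSG00000283782, on the same strand, which held between 0 and 297 counts in a library. ENSG00000283782 had log2 fold changes of 4.29 in C4-2B (edgeR adjusted p = 0.0592) and −0.36 in NCI-H660. How far reads of RAD50 were counted for the readthrough gene was not tested. EXO1, the exonuclease of long-range resection, went from 45.2 and 40.9 CPM to 24.7 and 20.5 in C4-2B (log2 fold change −0.93 ± 0.11, edgeR adjusted p = 0.000377). In NCI-H660 EXO1 stood at 68.3 and 70.8 CPM with shControl and at 90.6 and 96.1 with shMYCL, a log2 difference of 0.42 under the fold minimum. RBBP8, which encodes the resection starter CtIP, had log2 fold changes of −0.32 in C4-2B and 0.48 in NCI-H660.

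Of the 4 checkpoint kinases, 2 fell in C4-2B, where 8.12% of all genes did. None was called in NCI-H660, against 16.2% of all genes. ATR and CHEK1, which respond to single-stranded DNA at stalled forks, both fell in C4-2B. CHEK1 stood at 81.7 and 73.3 CPM in C4-2B control and at 40.2 and 37.2 in C4-2B MYCL (log2 fold change −1.003 ± 0.089, edgeR adjusted p = 9.93e-05). ATR stood at 55.2 and 50.03 CPM and then at 33.5 and 32.1 (log2 fold change −0.69, edgeR adjusted p = 0.000578). For ATM and CHEK2, which respond to double-strand breaks, the C4-2B values did not pass the threshold. ATM stood at 72.6 and 57.9 CPM in C4-2B control and at 65.1 and 60.2 in C4-2B MYCL, so that both MYCL libraries lay between the control libraries (log2 fold change −0.06 ± 0.11, edgeR adjusted p = 0.702). CHEK2 had a log2 fold change of 0.17 in C4-2B. In NCI-H660 CHEK1 stood at 115.3 and 114.6 CPM with shControl and at 148.7 and 149.2 with shMYCL, a log2 difference of 0.37 (edgeR adjusted p = 0.0134) that stayed under the fold minimum. ATM stood at 83.1 and 68.7 CPM and at 70.7 and 55.8, with overlapping groups, and ATR differed by 0.09 on the log2 scale. CHEK2 lay lower with shMYCL by a log2 difference of −0.43 (edgeR adjusted p = 0.0159), also under the fold minimum.

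The Fanconi anemia core complex is the ubiquitin ligase that marks the ID complex. Of its 8 genes here, 5 fell in C4-2B, against 8.12% of all genes. FANCB, a core scaffold subunit, stood at 16.4 and 15.3 CPM in C4-2B control and at 6.45 and 5.09 in C4-2B MYCL. It fell by 63.5% (log2 fold change −1.45 ± 0.16, edgeR adjusted p = 0.000229). On counts this was the largest fitted change of the 42 genes, within the error of that of XRCC2. On log2(TPM + 1) FANCB stood at −1.09 and XRCC2 at −1.37. FANCB had means of only 4.66 and 1.67 TPM in C4-2B control and C4-2B MYCL, a level at which the added 1 shrinks a change. In NCI-H660 FANCB stood at 16.2 and 17.6 CPM with shControl and at 19.4 and 21.2 with shMYCL (log2 fold change 0.26, edgeR adjusted p = 0.187). FANCM, the translocase that anchors the complex, went from 29.4 and 27.6 to 19.7 and 12.9 CPM in C4-2B, with the 2 MYCL libraries wide apart (log2 fold change −0.81 ± 0.17). FANCL, the catalytic ligase subunit, went from 13.1 and 14.5 to 8.24 and 8.01 CPM (log2 fold change −0.76 ± 0.14). Neither was called in NCI-H660, with log2 differences of 0.07 and −0.04.

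FANCA, the subunit most often mutated in Fanconi anemia, changed in both lines. It stood at 27.3 and 24.0 CPM in C4-2B control and at 15.4 and 15.2 in C4-2B MYCL (log2 fold change −0.75, edgeR adjusted p = 0.00101), and at 41.6 and 44.8 CPM with shControl and 73.7 and 62.9 with shMYCL in NCI-H660 (log2 fold change 0.66 ± 0.12, edgeR adjusted p = 0.000826). FANCA shares 19.6% of its exon bases with ZNF276 on the opposite strand, and ZNF276 had log2 differences of the same sign, −0.49 in C4-2B and 0.88 in NCI-H660. How far reads of one were counted for the other was not tested. FANCC fell by 0.55 on the log2 scale in C4-2B, a call that was lost without control replicate 2 or without MYCL replicate 2. FANCE, FANCF and FANCG, which act as adaptors in the complex, had log2 fold changes from −0.45 to −0.20 in C4-2B MYCL and from −0.29 to 0.14 in NCI-H660 shMYCL, and none was called.

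FANCD2, FANCI and BRIP1 all fell in C4-2B. FANCD2 and FANCI form the ID clamp that receives the ubiquitin mark from the core complex, and BRIP1 is a helicase that binds BRCA1. BRIP1 stood at 29.0 and 29.1 CPM in C4-2B control and at 17.4 and 13.8 in C4-2B MYCL (log2 fold change −0.90 ± 0.12, edgeR adjusted p = 0.000664). FANCI stood at 180.9 and 177.3 CPM and then at 121.5 and 110.0 (log2 fold change −0.63, edgeR adjusted p = 0.000418). FANCD2 stood at 64.9 and 64.4 CPM and then at 49.7 and 38.3 (log2 fold change −0.55, edgeR adjusted p = 0.00556), and its call was lost without MYCL replicate 2. For all 3 genes both MYCL libraries lay below both control libraries. In NCI-H660 BRIP1 rose from 67.4 and 55.6 CPM to 92.5 and 88.7 (log2 fold change 0.56 ± 0.12, edgeR adjusted p = 0.00243), and this call was lost without shControl replicate 2. FANCI and FANCD2 both had log2 differences of 0.35 there, under the fold minimum, with edgeR adjusted p-values of 0.0232 and 0.0219.

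Of the proteins that take apart joined DNA molecules, BLM and RMI2 belong to 1 complex and were called in opposite directions in NCI-H660. BLM, the helicase of the dissolvasome, fell from 20.4 and 20.8 to 13.3 and 12.1 CPM in C4-2B (log2 fold change −0.69 ± 0.11, edgeR adjusted p = 0.00156). In NCI-H660 BLM rose from 87.7 and 81.1 CPM with shControl to 143.2 and 136.2 with shMYCL, an increase of 65.5% (log2 fold change 0.73 ± 0.11, edgeR adjusted p = 0.00015). Its partner RMI2 fell in the same libraries, from 46.5 and 46.4 to 26.0 and 32.0 CPM (log2 fold change −0.68 ± 0.13, edgeR adjusted p = 0.0013), and the groups did not overlap. In C4-2B RMI2 stood at 10.9 and 13.3 CPM with the empty vector and at 11.3 and 8.81 with MYCL, which overlapped. RMI1, another subunit, had log2 differences of −0.50 in C4-2B, just under the fold minimum, and −0.18 in NCI-H660. MUS81 and EME1, the subunits of a junction-cutting nuclease, were called in neither line, with log2 fold changes of 0.36 and −0.12 in C4-2B and of 0.24 and 0.02 in NCI-H660. Without MYCL replicate 1, MUS81 was called higher in C4-2B, the only rise called there among the 42 when a library was left out.

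Of the 6 genes from other repair pathways, 2 fell in C4-2B, against 8.12% of all genes. None of the 6 was called in NCI-H660, where 16.2% of all genes were. UNG, the glycosylase that removes uracil from DNA, stood at 73.4 and 82.0 CPM in C4-2B control and at 46.2 and 50.6 in C4-2B MYCL (log2 fold change −0.68 ± 0.09, edgeR adjusted p = 0.000609). MSH6, a sensor of mismatched bases, stood at 125.5 and 119.7 CPM and then at 85.9 and 75.2 (log2 fold change −0.61, edgeR adjusted p = 0.000843). PARP1, the sensor of single-strand breaks and target of PARP inhibitors, stood at 598.3 and 607.3 CPM in C4-2B control and at 419.0 and 448.4 in C4-2B MYCL. The PARP1 groups were apart, but the log2 fold change of −0.48 ± 0.07 lay under the fold minimum (edgeR adjusted p = 0.00119). On log2(TPM + 1), with or without a filter, PARP1 was called lower, but not after centring each library on its median. In NCI-H660 PARP1 stood at 1057 and 1053 CPM with shControl and at 1111 and 1252 with shMYCL (log2 fold change 0.16, edgeR adjusted p = 0.285). POLQ, the polymerase of microhomology-mediated end joining, had log2 differences of −0.48 and 0.23, and XRCC1, the scaffold of single-strand break repair, of 0.02 and 0.05. PMS2, a mismatch repair endonuclease, was the only one of the 42 that was higher in C4-2B MYCL at an adjusted p under 0.05 (log2 fold change 0.34, edgeR adjusted p = 0.0197), under the fold minimum. PMS2 has near-identical copies, so its value is uncertain. Of these, the PMS2P3 gene held between 55 and 136 counts a library. PMS2CL held 34 and 20 counts in the C4-2B MYCL libraries and 0 in all others.

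**Figure D2:**
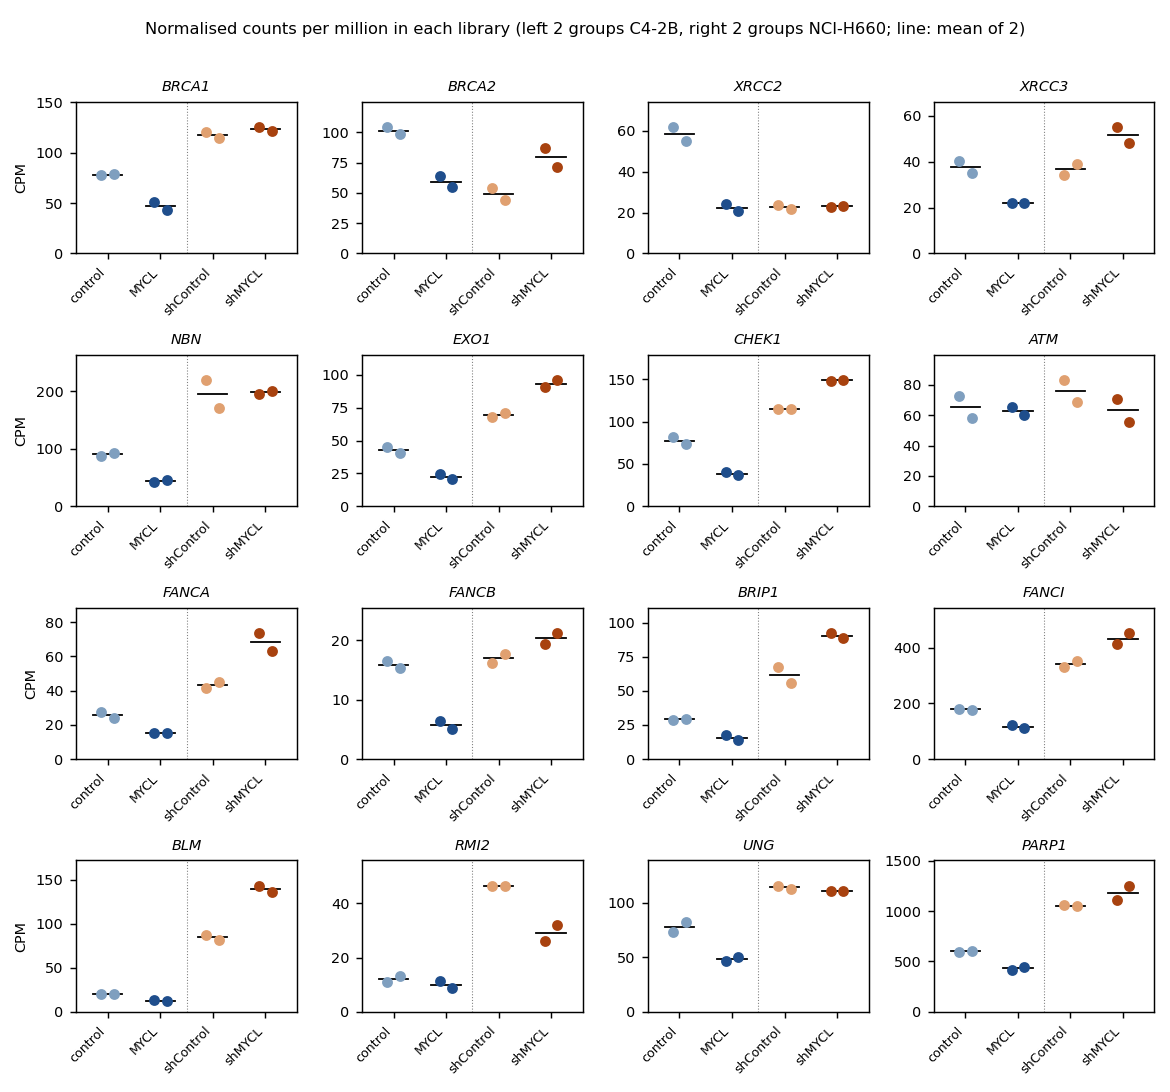
Each panel gives 1 gene, with the TMM-normalised CPM of every library as a point and the mean of 2 as a line. CPM values were scaled within each line, so levels are to be read within C4-2B (left) or within NCI-H660 (right). XRCC2 and FANCB drop most in C4-2B MYCL, BRCA2, FANCA, BRIP1 and BLM drop in C4-2B MYCL and are higher in shMYCL, and RMI2 is lower in shMYCL.

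Set side by side, the 2 lines share no library, and 27 of the 42 genes lay below 0 in C4-2B MYCL and above 0 in NCI-H660 shMYCL, against 29.1% of the 14212 genes tested in both. Of the 19 genes that fell in C4-2B, 4 rose in NCI-H660 shMYCL (BRCA2, FANCA, BRIP1 and BLM), none fell, and 15 were not called. Of all 1369 genes that fell in C4-2B, 136 rose in NCI-H660 shMYCL. At any fold change, 11 of the 42 had an adjusted p under 0.05 in both, lower with added MYCL and higher with MYCL knocked down, which is 26.2% of them, against 3.87% of those 14212 genes. These were BRCA2, XRCC3, RAD54L, RBBP8, EXO1, CHEK1, FANCA, FANCD2, FANCI, BRIP1 and BLM.

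**Figure D3:**
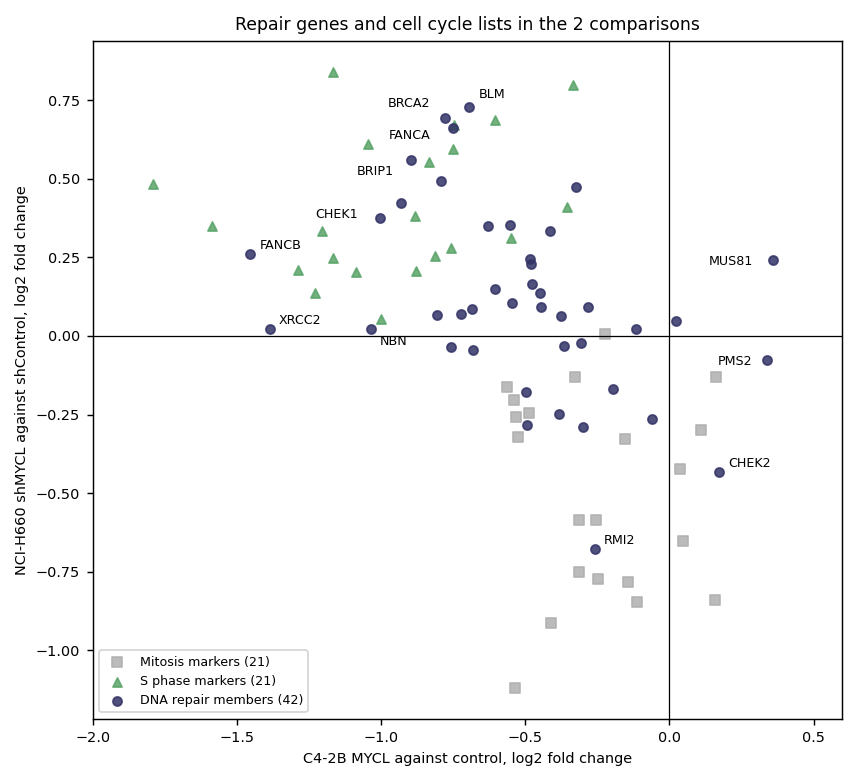
Each point is 1 gene, with the log2 fold change of C4-2B MYCL against control on the horizontal axis and that of NCI-H660 shMYCL against shControl on the vertical axis. Most of the 42 repair genes lie in the upper left region beside the 21 S phase markers, RMI2 lies among the mitosis markers, and XRCC2, FANCB and NBN lie far left and near 0 on the vertical axis.

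Whether a gene responded differently to MYCL in the 2 lines was tested directly, as the effect of high against low MYCL in C4-2B minus that in NCI-H660, in 1 fit of all 4 groups, where C4-2B MYCL and NCI-H660 shControl are the high groups. This test uses the libraries of both comparisons above. It called 15 of the 42 genes, all with the lower value in C4-2B, against 17.9% of the 19605 genes tested, 8.33% with a lower and 9.59% with a higher value. The largest differences were those of XRCC2 at −1.37 ± 0.16 (edgeR adjusted p = 0.000139), FANCB at −1.20 ± 0.21 (−0.72 on centred log2(TPM + 1)) and NBN at −1.02 ± 0.16 on the log2 scale. For BRCA2, BLM, FANCA and RAD54L the difference was −0.09 ± 0.18, 0.03 ± 0.14, −0.09 ± 0.16 and −0.08 ± 0.16, and none passed the threshold (edgeR adjusted p between 0.776 and 0.966). From the low to the high group, MYCL went from 11.4 and 13.4 to 3554 and 4018 CPM in C4-2B. In NCI-H660 it went from 10.9 and 12.7 to 109.9 and 86.7 CPM. The line and the direction and size of the MYCL change differ together in this test, and possibly the vector too. These cannot be told apart.

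Levels in the lines themselves were compared in the libraries with control vectors, which the comparisons above also use. In TPM, a scale per gene length, PARP1 was the highest of the 42 in both, at 197.7 in C4-2B control and 465.1 in NCI-H660 shControl, and FANCB had the lowest mean, at 4.66 and 6.40, though in NCI-H660 shControl its libraries lay within the range of those of BRCA2. Behind PARP1 came RAD51C, FANCI, UNG and CHEK1 in C4-2B, at 107.2, 52.5, 50.6 and 43.4 TPM, and MSH6, RBBP8, FANCI and UNG in NCI-H660, at 141.9, 127.2, 125.7 and 102.1 TPM. In CPM, RAD51C had a mean of 51.0 in C4-2B control, below FANCI at 179.1, UNG at 77.7 and CHEK1 at 77.5. Its place in TPM thus depends on the length used. In each line, 29 of the 41 neighbouring pairs in the TPM order overlapped between libraries, so most of the order below the leading genes is not resolved. FANCI and UNG were such a pair in C4-2B, and RBBP8 and FANCI in NCI-H660.

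Between the lines, 22 of the 42 were called, 17 higher and 5 lower in NCI-H660, against 71.6% of the 18748 genes tested, 37.4% higher and 34.2% lower. The share of repair genes called was thus below that of all genes on counts, but not on log2(TPM + 1), where 78.6% of the 42 and 72% of all genes were called, and centring each library on its median gave 47.6% and 68.8%. FANCL differed most, from 12.3 and 13.5 TPM in C4-2B control to 75.2 and 75.8 in NCI-H660 shControl (log2 fold change 2.07 ± 0.11). BLM, RMI2, RBBP8, MSH6, RAD54B and XRCC1 were also higher in NCI-H660, by log2 fold changes of 1.87, 1.78, 1.63, 1.30, 1.25 and 1.12. The 5 lower genes were RAD51C, XRCC2, BRCA2, RAD50 and POLQ, at −1.54, −1.53, −1.22, −0.79 and −0.66. XRCC2 and BRCA2 also stand apart in TPM, where XRCC2 was 15.4 and 16.7 in C4-2B control and 7.88 and 8.68 in NCI-H660 shControl, and BRCA2 was 9.99 and 10.5 against 5.89 and 7.62. None of the 4 checkpoint kinases was called between the lines on counts. On log2(TPM + 1) ATR and CHEK1 were called higher in NCI-H660, and CHEK1 went from a log2 difference of 0.40 on counts to 1.04. After centring each library on its median, none of the 4 was called. All genes had a median 0.57 higher in NCI-H660 on log2(TPM + 1), and there 33 of the 42 were called, 30 of them higher, and RAD50 and POLQ were no longer called, while after centring each library on its median 20 were called, 13 higher and 7 lower. Of all calls between the lines 52.2% were higher in NCI-H660 on counts and 71.4% on log2(TPM + 1).

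**Figure D4:**
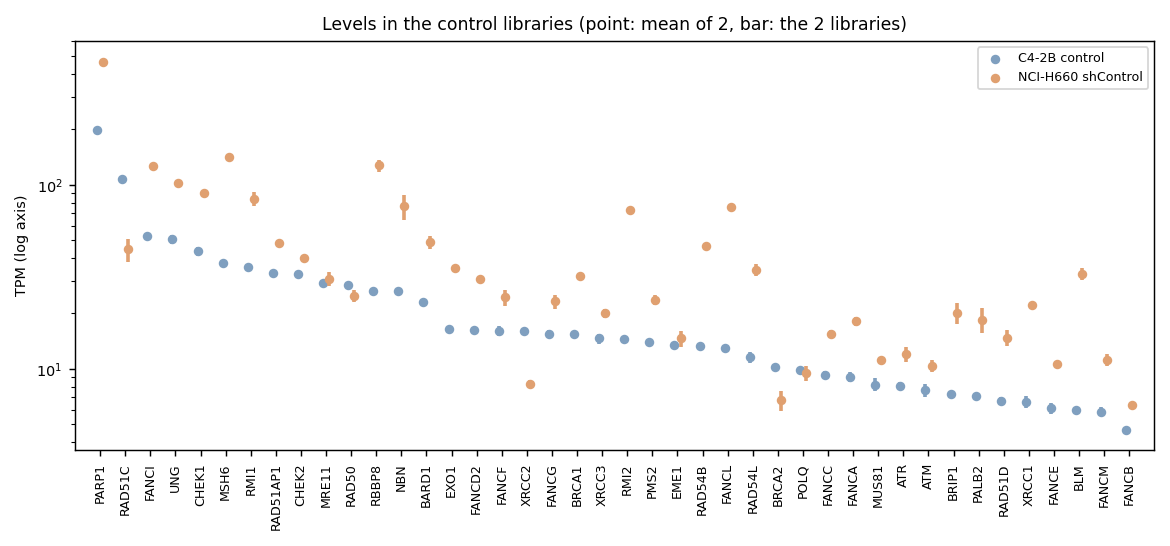
TPM of the 42 genes (log axis) in C4-2B control and NCI-H660 shControl, as the mean of 2 libraries with a bar joining them, ordered by the level in C4-2B control. Most genes stand higher in NCI-H660 on this scale, with FANCL, BLM and RMI2 far above and RAD51C, XRCC2 and BRCA2 below.

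The promoters of the repair genes were read for short motifs. RefSeq windows of 300 bases, from 250 before to 50 after an annotated start (GRCh38.p14), were found for 38 of the 42 genes. FANCI, NBN, RAD54B and RMI2 had none in the table. The 4 genes that changed in opposite directions in the 2 lines are shown first, then the 2 with the largest fall in C4-2B on counts. Capitals mark the E-box CACGTG, the E2F words TTCCCGC or TTCGCGC and their variants TTGCCGC or TTGGCGC, and the CCAAT box, on either strand.
BRCA2 promoter, chr13:32315258-32315557, plus strand: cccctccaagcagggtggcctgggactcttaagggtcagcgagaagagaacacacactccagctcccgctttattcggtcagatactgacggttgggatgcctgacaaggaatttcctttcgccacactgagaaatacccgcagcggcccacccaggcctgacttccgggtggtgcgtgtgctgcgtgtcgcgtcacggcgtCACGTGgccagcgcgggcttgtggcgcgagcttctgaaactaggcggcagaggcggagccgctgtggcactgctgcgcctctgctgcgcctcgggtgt
BRIP1 promoter, chr17:61863479-61863778, minus strand: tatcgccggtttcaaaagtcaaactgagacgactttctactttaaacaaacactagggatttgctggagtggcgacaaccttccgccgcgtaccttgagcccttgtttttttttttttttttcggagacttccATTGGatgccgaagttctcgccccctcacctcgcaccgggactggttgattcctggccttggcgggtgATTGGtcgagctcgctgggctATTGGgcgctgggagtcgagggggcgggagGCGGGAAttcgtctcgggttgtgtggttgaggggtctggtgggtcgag
BLM promoter, chr15:90717096-90717395, plus strand: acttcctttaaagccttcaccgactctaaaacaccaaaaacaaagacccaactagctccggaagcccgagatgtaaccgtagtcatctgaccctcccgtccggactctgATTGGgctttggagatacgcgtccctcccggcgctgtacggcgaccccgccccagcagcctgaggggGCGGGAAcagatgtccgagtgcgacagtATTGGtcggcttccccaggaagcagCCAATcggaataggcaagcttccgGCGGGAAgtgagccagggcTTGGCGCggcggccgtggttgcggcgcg
FANCA promoter, chr16:89816598-89816897, minus strand: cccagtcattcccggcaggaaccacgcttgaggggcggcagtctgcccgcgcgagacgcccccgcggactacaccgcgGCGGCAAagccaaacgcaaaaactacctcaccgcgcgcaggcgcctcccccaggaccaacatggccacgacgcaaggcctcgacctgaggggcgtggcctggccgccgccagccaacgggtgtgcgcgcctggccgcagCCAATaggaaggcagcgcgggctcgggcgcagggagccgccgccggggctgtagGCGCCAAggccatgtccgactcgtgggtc
XRCC2 promoter, chr7:152676092-152676391, minus strand: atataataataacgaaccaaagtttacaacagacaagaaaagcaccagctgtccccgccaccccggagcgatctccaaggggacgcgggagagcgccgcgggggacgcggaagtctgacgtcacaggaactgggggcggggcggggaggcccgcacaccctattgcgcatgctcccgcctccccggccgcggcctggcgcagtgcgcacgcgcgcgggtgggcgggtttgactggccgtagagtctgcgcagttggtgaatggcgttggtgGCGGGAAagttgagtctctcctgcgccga
FANCB promoter, chrX:14873020-14873319, minus strand: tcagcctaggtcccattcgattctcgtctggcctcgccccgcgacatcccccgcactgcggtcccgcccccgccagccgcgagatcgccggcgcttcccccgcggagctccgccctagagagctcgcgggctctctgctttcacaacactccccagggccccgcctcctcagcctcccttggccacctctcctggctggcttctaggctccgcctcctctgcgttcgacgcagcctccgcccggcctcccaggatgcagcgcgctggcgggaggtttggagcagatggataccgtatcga
The BLM window holds 3 E2F words and 3 CCAAT boxes, that of BRIP1 1 and 3, and that of FANCA 2 and 1. The XRCC2 window holds 1 E2F word, that of BRCA2 only an E-box, and that of FANCB none of these letters.

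Over all genes with a window, counting a match in any window of a gene, an E2F word was found in 25 of 38 members (65.8%), in 23.6% of the 12962 tested genes in the table and in 15.3% of all 27305. Among members the share was 70.6% of the 17 that fell in C4-2B and 61.9% of the 21 that were not called. The CCAAT box was found in 52.6% of members and 42.4% of tested genes, and the E-box, the word bound by MYC proteins with MAX, in 10.5% and 11.9%. By call, the E-box was found in 3 of the 17 that fell in C4-2B (17.6%) and in 1 of the 21 that were not called (4.76%). The CHR element TTTGAA was found in 15.8% of members and 14.0% of tested genes. A match of letters is a description of the sequence and not a bound site.

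Other repair genes, in lists kept apart from the 42, were read in the same fits. Of all genes tested, 8.12% fell and 11.8% rose in C4-2B, and 8.99% fell and 7.18% rose in NCI-H660. Of 33 further homologous recombination and Fanconi genes, 9 fell and 1 rose in C4-2B (median log2 fold change −0.254). HROB and TONSL, which act in replication-coupled recombination, fell by 1.11 and 1.09 on the log2 scale, and ABRAXAS1, a BRCA1-A complex subunit, was the gene that rose, by 0.67. In NCI-H660 31 of these were tested and 2 rose, MCM9 and SPIDR, by 0.69 and 0.53, a share near that of all genes. Of 16 genes of nonhomologous end joining 4 fell in C4-2B, led by XRCC5 and PRKDC (log2 fold changes −0.64 and −0.60), and XRCC4 rose in NCI-H660 (0.58).

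In excision repair, of 18 base excision and single-strand break repair genes 4 fell in C4-2B, led by OGG1 and TDG (−0.76 and −0.55), and NTHL1 and NEIL3 fell in NCI-H660 (−0.74 and −0.60). The shares of all genes given above are the ones to set beside these counts and those that follow. Of 20 nucleotide excision repair genes none was called in C4-2B by edgeR (2 at an adjusted p under 0.05, both lower), and GTF2H5 fell in NCI-H660 (−0.51). Among 9 genes of translesion synthesis and direct reversal, RAD18 fell and MGMT rose in C4-2B (−0.56 and 0.59), and REV1 rose in NCI-H660 (0.59). Of 17 checkpoint mediators 9 fell in C4-2B, led by CLSPN, the mediator of CHEK1 activation, and CDC25A, a phosphatase that drives entry into S phase (−1.83 and −1.38). In NCI-H660 3 of these rose and 1 fell, with CDC25A and CLSPN at 1.09 and 0.85.

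**Figure D5:**
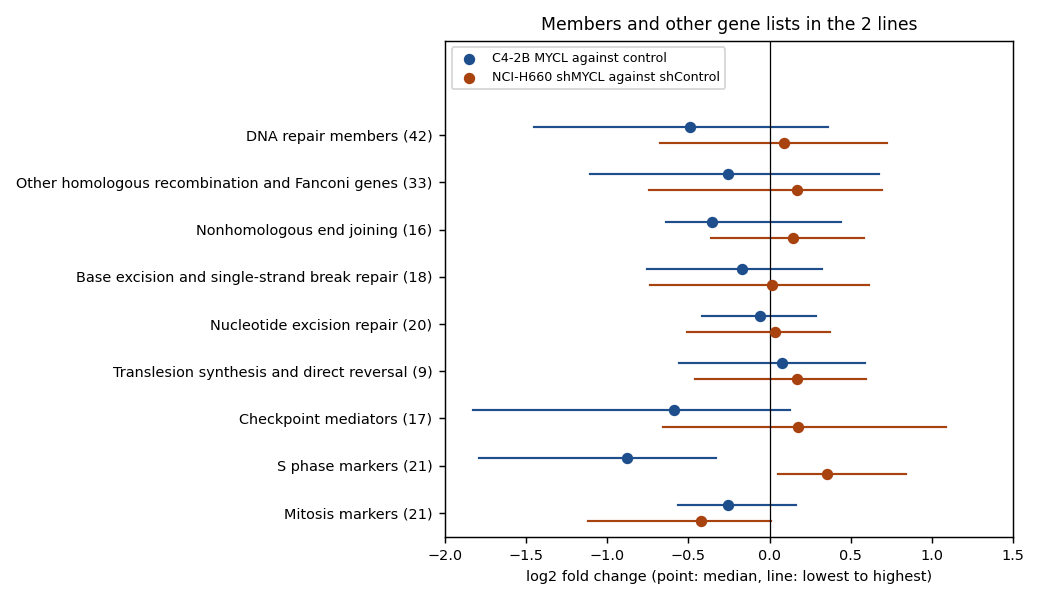
Median log2 fold change (point) and range (line) of the 42 repair genes and of other gene lists in C4-2B MYCL against control and NCI-H660 shMYCL against shControl, with the number of genes tested in C4-2B in brackets. The 42 genes have a median of −0.489 in C4-2B, with the checkpoint mediators at −0.588 and the S phase markers at −0.882 below them and the other lists above.

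S phase markers fell in C4-2B MYCL and rose in NCI-H660 shMYCL, while mitosis markers fell in both. Of 21 S phase markers, which hold none of the 42, 19 fell in C4-2B MYCL (median log2 fold change −0.882), and their summed level went from 1294 and 1280 to 670.4 and 598.9 TPM. In NCI-H660 7 rose and none fell (median 0.351), and the sum went from 3972 and 3945 to 5000 and 5049 TPM. PCNA, the sliding clamp of replication, stood at 179.0 and 182.6 CPM in C4-2B control and at 101.2 and 95.5 in C4-2B MYCL, and had a log2 difference of 0.21 in NCI-H660 that was not called. Of 21 mitosis markers 5 fell in C4-2B (median −0.256) and 10 fell in NCI-H660 shMYCL (median −0.422). MKI67, a marker of cycling cells, stood at 221.9 and 209.0 CPM in C4-2B control and at 149.2 and 142.5 in C4-2B MYCL (log2 fold change −0.56, edgeR adjusted p = 0.00055). In NCI-H660 it stood at 561.8 and 488.4 CPM and at 523.5 and 413.9, which overlapped. The luminal markers also moved in C4-2B, from sums of 2319 and 2321 to 1566 and 1416 TPM, with 3 of 9 called lower. At any fold change, 6 luminal markers were lower and 1 higher at an edgeR adjusted p under 0.05. On log2(TPM + 1) all genes had a median log2 fold change of −0.142 in C4-2B. The neuroendocrine markers in NCI-H660 went from 1384 and 1224 to 993.1 and 1112 TPM, with 2 of 9 called lower. They did not all move 1 way, since at any fold change 3 were lower and 2 higher at an edgeR adjusted p under 0.05. The fibroblast, endothelial and leukocyte markers went from 12.6 and 15.9 to 30.2 and 31.4 TPM in C4-2B, with 2 of the 6 tested called higher, and from 48.8 and 42.3 to 30.0 and 27.6 TPM in NCI-H660. The part of these shifts in the changes of the repair genes was not tested. Since 2 libraries against 2 allow an exact permutation test no p smaller than 0.33, every call here depends on the variance that edgeR pools over genes.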

How the data were processed

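Estimated counts were deposited by the authors per gene and library, without normalization between libraries; 34.4% of non-zero values were not whole, and all were rounded. TPM values were deposited by the authors for 65535 genes, made from counts and gene lengths with a common sum per library. The submitters' processing notes name hg38; the aligner and counter are not given in the sources used here. Each comparison was fitted in edgeR 4.0.16 (R 4.3.3) with TMM, filterByExpr, the quasi-likelihood test and Benjamini-Hochberg adjustment over all genes tested, with thresholds of 0.05 for the adjusted p and 0.5 for the size of the log2 fold change. The test statistic gave the standard errors. Scripts were tested on simulated data. The members and all lists were chosen with earlier results of these data known, and some repair genes outside the members are not reported here. Per-library values are given for called members with the largest fold changes of each role (up to 3) and for BRCA1, BRCA2, ATM, CHEK1 and PARP1. Exon overlaps are from GENCODE 44, promoters from RefSeq. Alternatives used DESeq2 1.42.0, limma 3.58.1 on TPM, other filters and fold minimums, a replicate block and leaving out each library.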

Additional observations from a re-analysis of the deposited data

Results flagged for a closer look

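The following genes are listed because the effect of high against low MYCL differed between C4-2B and NCI-H660 in a test of the difference itself (edgeR quasi-likelihood, Benjamini-Hochberg adjusted, all 4 groups). Values are log2 effects in C4-2B minus those in NCI-H660. In the BRCA group these were BRCA1 at −0.657 and PALB2 at −0.634, and among the strand-exchange genes XRCC2 at −1.367. In break sensing and resection they were MRE11 at −0.778, NBN at −1.016 and EXO1 at −0.509. ATR stood at −0.603 and CHEK1 at −0.632. In the Fanconi core complex FANCB stood at −1.197, FANCF at −0.592, FANCL at −0.796 and FANCM at −0.742. RMI1 stood at −0.677, RMI2 at −0.937 and UNG at −0.732. PALB2, MRE11, FANCF and RMI1 were called in this test while the comparison within each line did not call them, and their log2 differences were negative both in C4-2B MYCL and in NCI-H660 shMYCL. Leaving out 1 library ended the call of PALB2, EXO1, ATR, FANCF or FANCM in at least 1 case each, and the other 10 calls held without each of the 8 libraries. Of these 10, CHEK1, FANCB, FANCL and RMI2 were not called on unfiltered TPM values, where FANCB stood at −0.815, and after centring FANCB stood at −0.722. EXO1 was also not called with DESeq2 or with RLE size factors.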

How the results depend on the processing

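The limits are 2 libraries per group, a replicate label that may be technical, and overlapping genes or copies for XRCC3, RAD50, RAD54B, FANCA and PMS2. The number of members called kept within 1.5 times its value in each comparison under DESeq2, other size factors, other count filters, 1 fit of all groups and filtered TPM values, between 17 and 28 in C4-2B, 4 and 5 in NCI-H660, 20 and 33 between the lines and 11 and 15 for the difference of effects. Centring log2(TPM + 1) was chosen after seeing the data. With no minimum fold change 33 members were called in C4-2B and 13 in NCI-H660, against 35.0% and 24.8% of all genes. With a minimum of 1 on the log2 scale these counts were 4 and 0, with 10 between the lines and 3 for the difference of effects. These are 9.52%, 0%, 23.8% and 7.14% of the members, against 8.37%, 6.02%, 55.7% and 8.5% of all genes. At that minimum the share of members called in either direction was thus near or below that of all genes. By direction, all 4 members called in C4-2B and all 3 for the difference of effects were lower. Of all calls in these 2 tests, 73.1% and 64.2% were higher. Without a filter on TPM values 0 members were called in NCI-H660, where limma called 1 gene in all and 13 members had an unadjusted p under 0.05, and 7 were called for the difference of effects. Leaving out 1 library gave 19 to 24 called members in C4-2B, 5 to 6 in NCI-H660, 21 to 23 between the lines and 11 to 17 for the difference, where the group left with 1 library is assumed to vary like the others. The medians then ranged from −0.573 to −0.447, 0.053 to 0.146, 0.318 to 0.436 and −0.439 to −0.285. Of all calls in C4-2B 59.2% were higher on counts and 33.5% on log2(TPM + 1), and for the difference of effects 53.5% and 35.7%. BRCA2 lost its call in NCI-H660 on TPM values, and FANCA did at a pseudocount of 0.1 or after centring.

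The direction of ATM turned in C4-2B to 0.159 on log2(TPM + 1) with or without the filter, 0.176 on log2(TPM + 0.1), 0.307 after centring and 0.106 without control replicate 1, in a range of −0.218 to 0.106 over left-out libraries. Between the lines it turned to −0.309 after centring, −0.117 without C4-2B control replicate 2 and −0.075 without shControl replicate 1, in a range of −0.117 to 0.217, and for the difference of effects to 0.098, 0.108, 0.098 and 0.19 on the same 4 TPM scales. The difference for BRCA2 turned to 0.032 without MYCL replicate 2, 0.056 without shControl replicate 1 and 0.042 without shMYCL replicate 2, in a range of −0.25 to 0.056. The cause was not tested. Libraries that share a replicate number did not deviate together (correlations 0.0214, 0.0325 and 0.026). No effect shared by number was seen, but this cannot show whether the libraries were prepared in pairs. A replicate block left 19, 5 and 22 members called in the 3 comparisons, the same genes, and 16 for the difference, with MUS81 added.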

Other observations

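Dividing counts by TPM gives an implied length for each gene and library, and for a few members this length differed between groups. For ATM the implied length was lower in C4-2B MYCL than in C4-2B control, by a log2 difference of −0.37 that was larger than in 99.2% of 10227 genes, whose median absolute difference was 0.017. On log2(TPM + 1) the sign of the C4-2B difference was opposite to that on counts for ATM, CHEK2 and XRCC1, and after centring for ATM, and none of the 3 was called on either scale. For RAD51C the difference was −0.34 in C4-2B MYCL, past 98.9% of genes, and 0.22 in NCI-H660 shMYCL against shControl, past 97.1%. MRE11 had a longer implied length in NCI-H660 shControl than in C4-2B control, by 0.44, past 97.5% of genes. These genes were picked after their values were seen, and single transcripts were not analysed here.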
